A study of Mus musculus with 20 samples.

Results

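Gap junction and intercalated disc transcripts were examined in mouse heart ventricle that does or does not carry the tetracycline transactivator (tTA). The genes were chosen by name: the connexin genes Gja1, Gja4, Gja5 and Gjc1, the adherens junction genes Cdh2, Ctnnb1, Jup and Vcl, the desmosome gene Dsp and the scaffold gene Tjp1. All 10, of 8252 genes named on the array, were measured. They had 14 of its 12488 probe sets, the groups of short probes that each give 1 value, and 11 of the 14, at least 1 for each gene, were bright enough to be tested, among 7453 tested in all. That Gja1 is low in tTA hearts was known from an earlier look at these data, and the question was whether the other junction genes share it.

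The intercalated disc is the contact zone where heart muscle cells meet end to end. Gap junctions, built of connexins, pass current and small molecules from cell to cell. Adherens junctions tie the actin of neighbouring cells together through N-cadherin, the catenins and vinculin, while desmosomes anchor the intermediate filaments through plakoglobin, plakophilins and desmoplakin. Connexin 43, the product of Gja1, is the main connexin of the working ventricle, and scaffold proteins such as ZO-1, the product of Tjp1, bind it at the edge of the gap junction.

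Total RNA of ventricle was hybridised to Affymetrix arrays, and 19 of 20 arrays carried a title that gives a group. The title of the other one speaks of cardiac tTA expression alone, as the description of the whole study does, so it was put in no group. There were 5 arrays of tTA mice with doxycycline (tTA + Doxy), 8 of tTA mice without it (tTA), 4 of wild-type FVBN mice with doxycycline (FVBN + Doxy) and 2 of untreated wild-type mice (FVBN control). The labels place tTA in hearts of FVBN mice and list the alpha MHC promoter among their keywords, the promoter of Myh6, which is active in heart muscle cells. tTA activates genes behind tetracycline operators, and doxycycline keeps it off them. The labels give no age, no sex, no transgenic line and neither dose nor duration of Doxy, and the tTA transcript itself was not analysed here. They do not state whether each array is a mouse of its own, and where it is not, the spread behind a p-value may be technical.

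Values are deposited intensities, on a linear scale in arbitrary units. Medians of the 19 arrays lay near 61, and arrays of a group correlated with each other at Pearson r of 0.9865 or more over the tested probe sets. Among tissue markers Myl2, the ventricular light chain, read 5343 to 6774, and Myl7, the atrial light chain, 30.6 to 52.7, too dim to be tested. Other listed atrial markers were brighter, with Nppa at 208.9 to 400.5 and Myl4 at 68.6 to 94.3. Whether the samples hold some atrial tissue was not tested. The numbers in the titles run in separate ranges for each group (7399 to 7488 for tTA + Doxy, 7288 to 7311 with 9310 and 9322 for tTA, 8337 to 8341 for FVBN + Doxy, 8177 and 8182 for FVBN control), and if they mark cohorts, cohort and group cannot be told apart. A sign of RNA quality, the beta-actin ratio (log2 of the control probe set at the 3' end over that at the 5' end), averaged 0.362 ± 0.0603 in tTA + Doxy (SD, n = 5), 0.323 ± 0.11 in tTA (n = 8), 0.509 ± 0.0793 in FVBN + Doxy (n = 4) and 0.549 ± 0.0082 in FVBN control (n = 2). The beta-actin ratio nearly parts the genotypes, with a lowest FVBN value of 0.407 and a highest tTA value of 0.445. A fit that holds it is therefore less precise about genotype. The same ratio for Gapdh overlapped, at -0.014 to 0.105 in tTA + Doxy and -0.117 to 0.128 in tTA. It was 0.002 to 0.123 in FVBN + Doxy, and 0.056 and -0.04 in FVBN control. The differences given below are log2 differences from a linear model fitted in limma to all tested probe sets, with the standard error (SE), and a call is a Benjamini-Hochberg adjusted p below 0.05 over all 7453.

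The stretches upstream of Gja1, the connexin gene that fell, and of Gja5, a cardiac connexin gene with no detectable difference, are shown for comparison. Each runs over the 250 bases before the RefSeq start of the gene in GRCm38.p6, on the plus strand: Gja1 at chr10:56377050-56377299 and Gja5 at chr3:97032152-97032401. Capitals mark matches to the motifs searched on both strands.
Gja1: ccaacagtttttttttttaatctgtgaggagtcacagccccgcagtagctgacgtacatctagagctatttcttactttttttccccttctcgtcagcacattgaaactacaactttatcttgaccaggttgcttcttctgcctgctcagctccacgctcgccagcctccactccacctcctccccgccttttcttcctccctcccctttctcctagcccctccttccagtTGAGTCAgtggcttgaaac
Gja5: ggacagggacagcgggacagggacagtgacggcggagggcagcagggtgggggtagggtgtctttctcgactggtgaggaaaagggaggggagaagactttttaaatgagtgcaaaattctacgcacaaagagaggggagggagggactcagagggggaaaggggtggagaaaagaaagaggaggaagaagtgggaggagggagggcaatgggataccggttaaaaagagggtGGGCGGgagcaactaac
Motif letters were TATAAA for the TATA box. Those of the GC box were GGGCGG. Those of the CCAAT box are its name, CCAAT. The AP-1 site was searched as TGANTCA. In the Gja1 stretch there was 1 AP-1 match, at positions -19 to -13 counted back from the start, a motif held by 6.75% of the 32851 RefSeq stretches of this length. The Gja5 stretch held 1 GC box match, at -17 to -12, as 32.7% of all stretches do. A match of letters describes the sequence and does not show that a factor binds there. RefSeq stretches were matched for 8 of the 10 genes, without Cdh2 and Gjc1.

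Gja1 was lower in tTA ventricle both with and without Doxy, with no overlap between the grouped arrays of each genotype at the brighter of its 2 probe sets. There the tTA + Doxy arrays read 1264, 1461, 1390, 1353 and 1305 and the FVBN + Doxy arrays 1960, 1939, 1902 and 1697. Without Doxy the 8 tTA arrays ran from 1193 over a median of 1235 to 1514, and the FVBN control arrays read 2110 and 2119. None of the 13 arrays in the tTA groups reached the lowest wild-type array. The 1 array left out of all groups, whose title names tTA expression in the heart but neither a mouse number nor Doxy, read 1768, above all 13 and within the range of the wild-type arrays. Were it a tTA array, the genotypes would overlap here. On the log2 scale the difference was -0.48 ± 0.06 (SE) in tTA + Doxy against FVBN + Doxy (limma adjusted p = 0.000133, n = 5 and 4) and -0.60 ± 0.07 in tTA against FVBN control (adjusted p = 3.99e-05, n = 8 and 2), 1.39-fold and 1.52-fold lower. Averaged over both Doxy states it was -0.54 ± 0.05 (adjusted p = 1.73e-07), lower in 13 of 13 tTA arrays. Among the 7453 tested probe sets 19 had a more negative averaged difference than this one. With the beta-actin ratio in the fit and in every other alternative run on this probe set, the call held in all 3 comparisons.

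Both Gja1 probe sets come from the same source sequence, and whether either also picks up other transcripts was not tested. The second Gja1 probe set is much dimmer. It read 55.5, 59.8, 67.6, 62.6 and 56.0 in tTA + Doxy and 99.1, 81.9, 123.9 and 65.2 in FVBN + Doxy. Without Doxy it ran from 48.3 over 57.8 to 75.9 in tTA, against 81.8 and 126.2 in FVBN control. The wild-type arrays spread widely among themselves, and with Doxy the groups overlap at FVBN + Doxy array 8341. The differences had the same sign, at -0.58 ± 0.18 with Doxy (limma adjusted p = 0.0667) and -0.79 ± 0.21 without (adjusted p = 0.057), and neither passed, although each did under some alternatives (lowest adjusted p = 0.0267 with Doxy and 0.0246 without). Averaged over Doxy, -0.69 ± 0.14 passed (adjusted p = 0.00478), but not with the beta-actin ratio in the fit, where the difference stayed at -0.67 (adjusted p = 0.103), or without FVBN control array 8182 (-0.54, adjusted p = 0.0737).

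**Figure D1:**
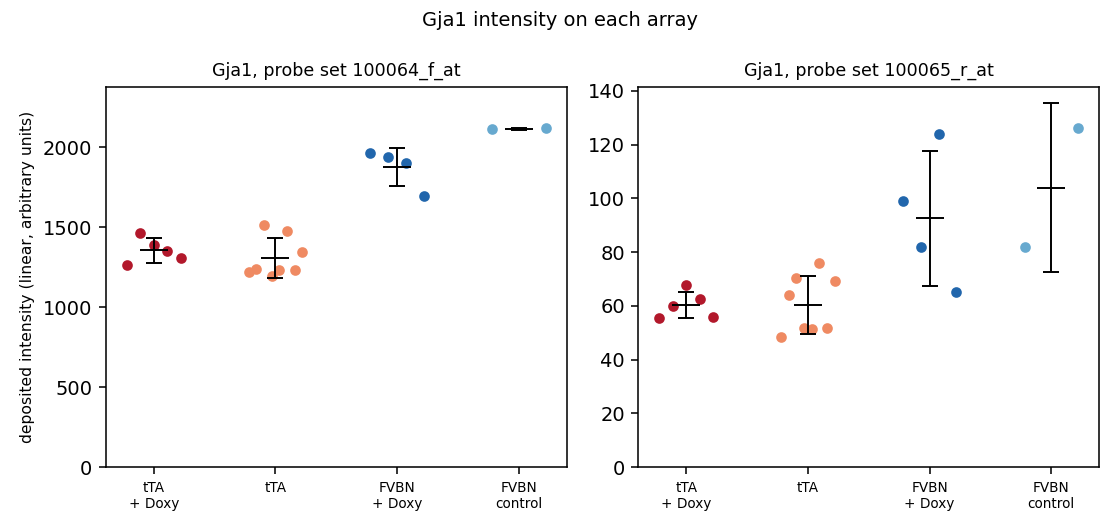
Deposited intensity (linear, arbitrary units) of the 2 Gja1 probe sets on each array, by group; points are arrays, and bars give the mean and SD of the group. At the brighter probe set the 13 tTA arrays lie between 1193 and 1514 and the 6 FVBN arrays between 1697 and 2119.

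Doxy itself left Gja1 without a detectable change. The difference of tTA + Doxy from tTA was 0.01 ± 0.05 (limma adjusted p = 0.97, 95% interval -0.10 to 0.12) and a return by the size of the genotype difference lies outside that interval. In wild-type mice FVBN + Doxy stood at -0.11 ± 0.08 from FVBN control (adjusted p = 0.565), with all 4 FVBN + Doxy arrays below both controls. The test of whether the Doxy effect differs between genotypes gave 0.13 ± 0.10 (adjusted p = 0.534). Of the 11 tested probe sets of these 10 genes, 0 passed in any of these 3 comparisons in limma, and 2 in FVBN + Doxy against FVBN control, 1 in tTA + Doxy against tTA and 0 in the interaction had an unadjusted p below 0.05. With all 4 FVBN + Doxy arrays below both controls, Gja1 and Tjp1 were 2 such probe sets of 11, where 10.8% of all were. Few probe sets of any kind passed there, 0.0403% in FVBN + Doxy against FVBN control, 0.0671% in tTA + Doxy against tTA and 0.0134% in the interaction. An unadjusted p below 0.05 was held by 11.8% of all in FVBN + Doxy against FVBN control, 7.7% in tTA + Doxy against tTA and 14.5% in the interaction.

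The probe sets of the other connexin genes showed no such drop in signal. They are far dimmer, with mean intensities of 118.9 (Gja5), 97.4 (Gja4) and 49.67 (Gjc1), against 1524 at the brighter Gja1 probe set. Gja5 encodes connexin 40 of atria, conduction system and arterial endothelium. It read 111.4, 115.9, 119.6, 115.3 and 119.7 in tTA + Doxy and 124.4, 112.4, 118.9 and 116.5 in FVBN + Doxy. In tTA it ran from 104.2 over 121.2 to 133.6, against 113.4 and 124.7 in FVBN control. Its levels overlap in all groups, and the averaged genotype difference was 0.00 ± 0.05 with a 95% interval of -0.10 to 0.09 (limma adjusted p = 0.983). A drop in signal as large as that of Gja1 lies outside this interval. How much of so dim a signal comes from the transcript was not tested, so a drop of the transcript itself may read smaller.

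Gja4, the gene of connexin 37 of arterial endothelium, was nearly constant. It lay between 88.7 and 97.6 in tTA + Doxy, 93.6 and 103.6 in tTA, 94.2 and 102.1 in FVBN + Doxy, and at 98.3 and 100.3 in FVBN control. The averaged difference was -0.04 ± 0.03 (limma adjusted p = 0.502, 95% interval -0.11 to 0.02). Gjc1 encodes connexin 45 of the conduction system and the early heart. It ranged from 41.4 to 51.1 in tTA + Doxy, 45.7 to 52.9 in tTA and 49.7 to 56.2 in FVBN + Doxy, and read 51.0 and 50.2 in FVBN control. Here the averaged difference was -0.08 ± 0.04 (adjusted p = 0.331, 95% interval -0.17 to 0.01). Gjc1 was the dimmest of the tested probe sets described here and close to the lowest level tested, a mean of 44.3.

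Of the adherens junction genes, Cdh2 came nearest to Gja1. Cdh2 encodes N-cadherin, the cadherin of the disc. Arrays of tTA + Doxy read 295.7, 421.7, 461.9, 480.4 and 368.7 and those of FVBN + Doxy 416.4, 471.0, 501.6 and 428.5. In tTA the range was 341.5 to 541.1 with a median of 366.0, against 502.0 and 507.0 in FVBN control. The tTA arrays spread widely: 5 of the 8 lay between 341.5 and 368.3, while 7294, 7311 and 9322 read 444.1, 497.0 and 541.1. The averaged difference of -0.25 ± 0.11 did not pass (limma adjusted p = 0.202), and its 95% interval, -0.49 to -0.02, overlaps that of Gja1, -0.64 to -0.44. Without Doxy the difference was -0.29 ± 0.17 (adjusted p = 0.416) and with Doxy -0.21 ± 0.14 (adjusted p = 0.425).

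Ctnnb1, the gene of beta-catenin, which links cadherins to the actin anchor and also carries Wnt signals, went the other way. It read 646.4, 557.5, 657.9, 680.2 and 686.5 in tTA + Doxy and 552.4, 501.3, 585.7 and 493.3 in FVBN + Doxy. The groups overlap at tTA + Doxy array 7424, and the difference of 0.25 ± 0.07 passed (limma adjusted p = 0.04, higher in 5 of 5 arrays). That call is a narrow one: it ended without any 1 of 6 arrays (FVBN + Doxy 8338 or 8341, tTA + Doxy 7399, 7485, 7486 or 7488, highest adjusted p = 0.144), with the beta-actin ratio (0.0771), with all probe sets tested (0.0966) and with the arrays compared alone (0.0531). The difference itself stayed at 0.26, 0.25 and 0.25 in these last 3 and was 0.21 without 8338 or 8341. In tTA without Doxy Ctnnb1 ran from 584.4 over 666.6 to 733.6, against 592.5 and 686.1 in FVBN control, a difference of 0.09 ± 0.08 (adjusted p = 0.62). FVBN + Doxy was the lowest of the 4 groups, at -0.20 ± 0.09 from FVBN control (adjusted p = 0.406). The averaged genotype difference, 0.17 ± 0.06, just missed the threshold (adjusted p = 0.0536), and passed with array weights (0.0328), with the brightest 40% tested (0.0439) or without 1 of 6 arrays (FVBN control 8182, FVBN + Doxy 8337 or 8340, tTA 7310 or 9310, tTA + Doxy 7424, lowest 0.0253).

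Jup encodes plakoglobin, which sits in both adherens junctions and desmosomes. It read 304.2, 346.8, 295.9, 384.0 and 309.5 in tTA + Doxy and 330.7, 409.6, 346.7 and 390.5 in FVBN + Doxy, overlapping ranges with a difference of -0.21 ± 0.07 (limma adjusted p = 0.0718), which passed with array weights (0.0247) or without tTA + Doxy array 7486 (0.0303). Without Doxy the tTA arrays ran from 324.2 over 350.2 to 386.7, against 406.0 and 365.8 in FVBN control (-0.08 ± 0.08, adjusted p = 0.69). Averaged over Doxy the Jup difference was -0.14 ± 0.05 (limma adjusted p = 0.1), and it passed without tTA + Doxy array 7486 (0.0404). Vcl encodes vinculin, which binds the catenins and talin to actin. Its deposited values were 409.7, 406.4, 513.7, 492.7 and 427.1 in tTA + Doxy, all above those of FVBN + Doxy at 389.9, 403.1, 401.5 and 386.6. After normalization the groups overlapped, and the difference of 0.14 ± 0.08 did not pass (adjusted p = 0.306). In tTA Vcl ran from 382.7 over 417.6 to 527.3, and in FVBN control it was 429.1 and 404.2 (0.12 ± 0.09, adjusted p = 0.554). The averaged difference of Vcl was 0.13 ± 0.06 (limma adjusted p = 0.217). A further Vcl probe set, at 27.0 to 37.8 on all arrays, lay under the brightness needed for testing.

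Dsp encodes desmoplakin, which ties desmosomes to the intermediate filaments. It read 1247, 1270, 1480, 1358 and 1308 in tTA + Doxy and 1384, 1436, 1533 and 1200 in FVBN + Doxy. In tTA the values ran from 1203 over 1315 to 1431, and both FVBN control arrays were higher, at 1523 and 1710. The difference without Doxy, -0.20 ± 0.07, did not pass (limma adjusted p = 0.164), but it did where arrays were scaled to the same median (-0.32, adjusted p = 0.0342) or not normalized further (-0.30, adjusted p = 0.0405). With Doxy it was -0.07 ± 0.06 (adjusted p = 0.542), and averaged -0.14 ± 0.05 (adjusted p = 0.0904), where the same scalings (adjusted p = 0.0392 and 0.0379), or leaving out FVBN + Doxy array 8341 (0.0229), made it pass. A dim Dsp probe set, at 11.9 to 16.8, was not tested.

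Tjp1, the ZO-1 gene, read 198.2, 200.4, 236.4, 230.8 and 229.2 in tTA + Doxy and 206.6, 221.5, 232.0 and 214.8 in FVBN + Doxy. In tTA it ran from 200.9 over 228.8 to 257.2, below both FVBN control arrays at 262.4 and 271.0. The FVBN control arrays stood apart here from every other group: tTA differed from them by -0.18 ± 0.08 (limma adjusted p = 0.21) and FVBN + Doxy by -0.25 ± 0.08 (adjusted p = 0.353). With Doxy in both genotypes the difference was -0.03 ± 0.06 (adjusted p = 0.811, 95% interval -0.16 to 0.10). A drop of the size seen for Gja1 lies outside that interval. Averaged over Doxy, Tjp1 stood at -0.11 ± 0.05 (limma adjusted p = 0.205). The other Tjp1 probe set lay between 8.35 and 9.92, under the floor on all arrays, and gives no value.

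**Figure D2:**
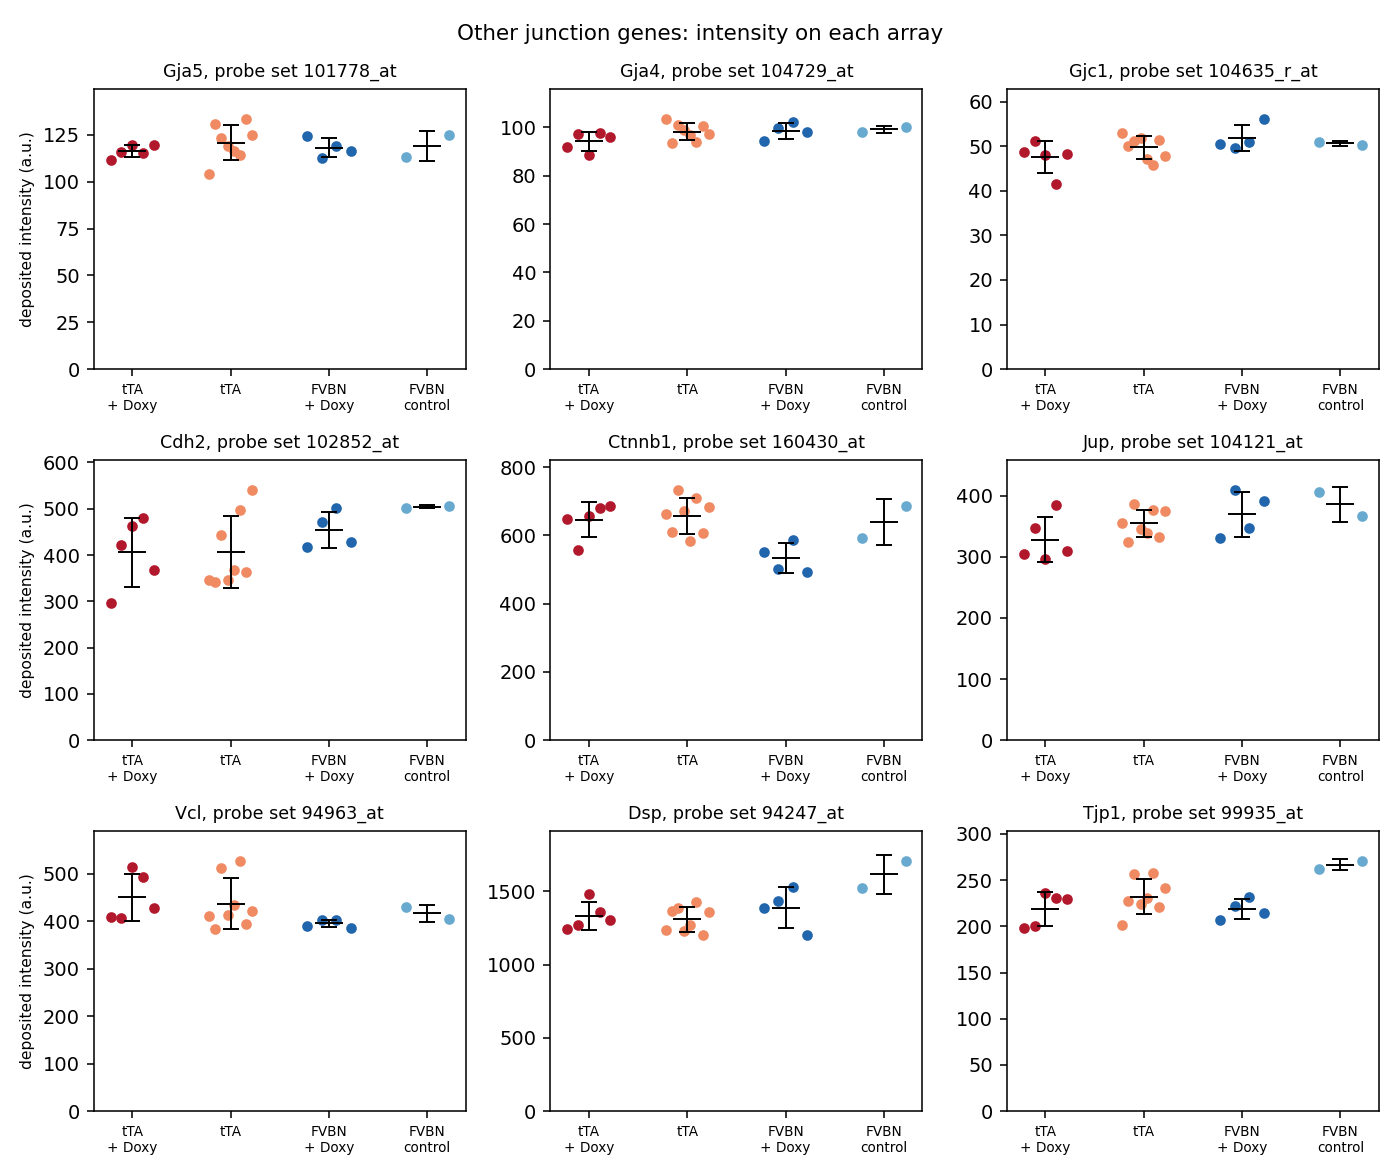
Deposited intensity (linear, arbitrary units) of the other 9 genes on each array, brightest probe set, with the mean and SD of each group. With Doxy the ranges of the genotypes overlap for each gene but Vcl (406.4 or more against 403.1 or less), and without Doxy the tTA arrays lie below both controls for Dsp (highest 1431 against 1523) and Tjp1 (257.2 against 262.4).

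Counted over the 11 tested probe sets, 1 passed as lower (Gja1) and 1 as higher (Ctnnb1) in tTA + Doxy against FVBN + Doxy, where 5.89% of all tested probe sets passed, 1.6% lower and 4.29% higher. In tTA against FVBN control 1 passed as lower (Gja1) and 0 as higher, against 2.82% of all, 1.82% lower and 0.993% higher. Of those calls 35.2% were higher, but 17.2% with arrays scaled to the same median and 25.0% with no further normalization. That background rests on the 2 controls: the 210 calls behind it became 54 without FVBN control array 8177, 63 without 8182 and 27 with the beta-actin ratio. The averaged genotype difference gave 2 calls, both Gja1 and both lower, against 9.02% of all, 4.27% lower and 4.75% higher. Here the 672 calls behind the background became 341 without 8177, 339 without 8182 and 210 with the beta-actin ratio. With Doxy in both genotypes the 439 calls became 240 to 272 without FVBN + Doxy array 8337 or 8341 or tTA + Doxy array 7485 or 7488. Unadjusted p-values below 0.05 were more common: 6 lower and 2 higher of the 11 in the averaged difference, where 9.97% of all tested probe sets had one as lower and 11.1% as higher, 21.1% in all. The 6 were both Gja1 probe sets, whose fall was known beforehand, with Cdh2, Jup, Dsp and Tjp1. The 2 were Ctnnb1 and Vcl. In tTA against FVBN control 4 of the 11 had such a p-value (both Gja1 probe sets, Dsp and Tjp1), against 16.6% of all. In tTA + Doxy against FVBN + Doxy 4 of the 11 did (both Gja1 probe sets, Jup and Ctnnb1), against 21.1%. The median averaged difference of the 10 genes, each by its brightest probe set, was -0.09, with 8 below 0, Gja1 among them, and 2 above, against a median of 0.0007 and 49.6% below 0 over all tested probe sets. As to groups that do not overlap, 4 of 11 probe sets lay wholly lower in tTA than in FVBN control (both Gja1 probe sets, Dsp and Tjp1), where 6.06% of all did, and 1 of 11 (Gja1) wholly lower in tTA + Doxy than in FVBN + Doxy, where 3.48% did.

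**Figure D3:**
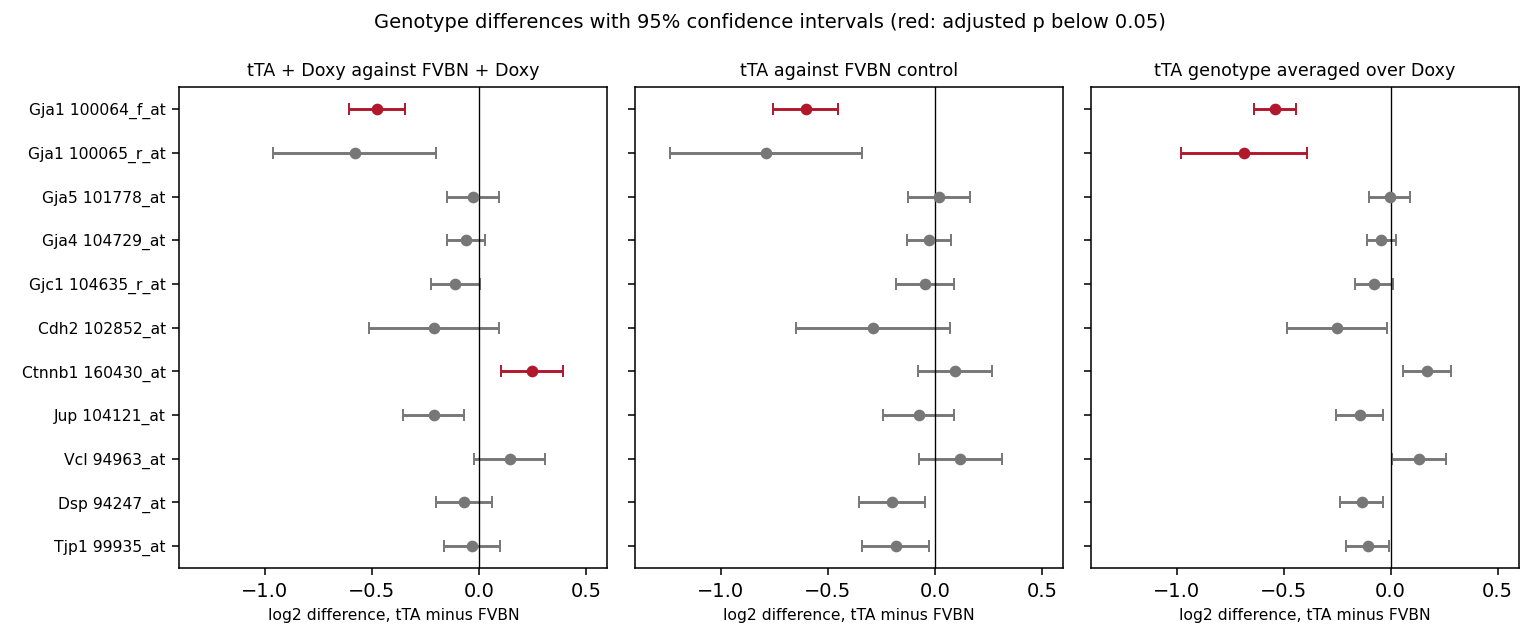
Log2 difference between tTA and FVBN arrays for the 11 tested probe sets, with 95% confidence intervals from limma, in tTA + Doxy against FVBN + Doxy (left), tTA against FVBN control (middle) and averaged over Doxy (right); red marks an adjusted p below 0.05. The brighter Gja1 probe set lies at -0.48, -0.60 and -0.54, and the intervals of Gja5 and Gja4 span 0 in each panel.

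Whether Gja1 changed more than the others was tested on the same arrays, as the difference between the log2 value of Gja1 and that of each other probe set. Since Gja1 was already known to be low in these data, that choice favoured a larger fall than that of other genes. The averaged genotype difference of Gja1 was more negative than that of all 9 other genes, with differences of -0.71 to -0.29 on the log2 scale. It was nearest to Cdh2, at -0.29 ± 0.07 (SE, limma adjusted p = 0.000168), then to Jup (-0.40 ± 0.07) and Dsp (-0.40 ± 0.07), and farthest from Vcl (-0.67 ± 0.07) and Ctnnb1 (-0.71 ± 0.07). Since all pairs share Gja1, moderated variances may be too even: without moderation the SE for Cdh2 was 0.093 (adjusted p = 0.0074), and all 9 still passed. The same test passed for 99.4% of the 7452 other tested probe sets, 99.3% without moderation. Gja1 therefore differed from these 9 junction genes as it did from nearly all transcripts, and the test shows nothing particular to this set of genes. Pkp2, a desmosome gene described below, is not among the 9. Its averaged difference, -0.44, was nearer to that of Gja1 than theirs were.

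Outside these genes, 118 other genes of gap junctions, desmosomes, adherens and tight junctions, the disc and catenin turnover were listed, 84 were on the array and 61 were tested. In tTA + Doxy against FVBN + Doxy 2 of the 61 fell and 4 rose, where 1.6% of all tested probe sets were called lower and 4.29% higher. In tTA against FVBN control 2 fell and 0 rose, where 1.82% and 0.993% of all did. In the averaged difference 6 fell and 4 rose, with a median of -0.02, where 4.27% and 4.75% of all did. These counts move with single arrays, from 2 to 7 with Doxy, 0 to 3 without and 5 to 12 averaged when 1 array is left out, and to 2 averaged with the beta-actin ratio in the fit. By list, the averaged difference gave 2 lower of 9 tested other desmosome genes and 2 lower and 1 higher of 22 tested other adherens genes. It gave 1 lower and 2 higher of 10 tight junction and scaffold genes, and 1 lower and 1 higher of 9 other disc genes. Other connexins and pannexins had 3 tested genes of 17 and no call, and the 8 tested genes of Wnt and catenin turnover had none either.

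Pkp2 encodes plakophilin 2, which joins desmoplakin to the desmosomal cadherins, and had the most negative averaged difference of the listed genes that passed (-0.44 ± 0.07, limma adjusted p = 0.000381). At the brighter probe set it ran from 300.3 over 337.5 to 391.8 in tTA + Doxy, against 379.3 over 412.5 to 460.6 in FVBN + Doxy. Without Doxy it ran from 258.9 over 303.1 to 397.7 in tTA, with 449.2 and 476.2 in FVBN control. Pkp2 fell in both comparisons, at -0.33 ± 0.09 (limma adjusted p = 0.0341) with Doxy and -0.54 ± 0.11 (adjusted p = 0.00725) without. A second probe set fell too, at -0.45 ± 0.06 (adjusted p = 0.000325) with Doxy, -0.48 ± 0.08 (adjusted p = 0.000609) without and -0.465 ± 0.05 averaged (limma adjusted p = 2.91e-06). The alternatives were not run on this second probe set. At the brighter one the call ended with the beta-actin ratio in the fit (-0.25, adjusted p = 0.152 with Doxy, -0.42, 0.253 without, and -0.34, 0.0772 averaged). With Doxy it also ended under the other scalings (0.0979 and 0.0755), with all probe sets (0.0958) and without 1 of 5 arrays (FVBN + Doxy 8337 or 8338, tTA + Doxy 7485, 7486 or 7488, highest 0.117), and without Doxy it ended without FVBN control array 8177 or 8182 (highest 0.133).

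Another desmosome gene, Perp, a membrane protein of desmosomes, fell without Doxy (-0.34 ± 0.08, limma adjusted p = 0.0291) and stood at -0.04 with Doxy (adjusted p = 0.793); the difference between the 2 did not pass (interaction adjusted p = 0.266), and the call ended without either FVBN control array (highest 0.35), without tTA arrays 9310 and 9322 (0.0539), with all probe sets (0.0868) and with the beta-actin ratio (0.425). Fhl2, a LIM protein of the sarcomere and disc, fell with Doxy (-0.33 ± 0.07, adjusted p = 0.00948), where tTA + Doxy lay at 1572 to 2073 and FVBN + Doxy at 2185 to 2294. Without Doxy it stood at -0.28 ± 0.09 (adjusted p = 0.0798) and passed under both other scalings (0.0107 and 0.0106). There tTA lay at 1462 to 1807 and FVBN control at 2088 to 2117, so no grouped tTA array reached the lowest wild-type array, as for Gja1. Averaged over Doxy, Fhl2 stood at -0.31 ± 0.06 (limma adjusted p = 0.00122). That call held in every alternative, the beta-actin ratio included (highest adjusted p = 0.0365), and without each array (highest 0.0169). Higher in tTA + Doxy than in FVBN + Doxy were F11r, a junctional adhesion molecule (0.35 ± 0.07, adjusted p = 0.00295), Actn1, a non-muscle alpha-actinin (0.26 ± 0.08, adjusted p = 0.0376), Cav3, the muscle caveolin (0.24 ± 0.06, adjusted p = 0.0254), and Ank3, ankyrin-G (0.16 ± 0.04, adjusted p = 0.026). Without Doxy none of these passed in limma: F11r 0.18 (adjusted p = 0.237), Actn1 0.14 (0.435), Cav3 0.17 (0.256) and Ank3 0.07 (0.537). F11r read 187.3 to 219.2 in FVBN + Doxy, below the 232 to 244.1 of FVBN control. The calls of Actn1, Cav3 and Ank3 each ended without any 1 of several arrays (highest adjusted p 0.089, 0.109 and 0.0748), while that of F11r held without each array. That of Actn1 also ended with the beta-actin ratio (0.30, adjusted p = 0.0544) and with all probe sets (0.101), and that of Cav3 with all probe sets (0.0654) and with the arrays compared alone (0.0539). Other probe sets of Cav3 and Ank3 did not pass (adjusted p = 0.0758 and 0.281). Averaged over Doxy, F11r (0.26, limma adjusted p = 0.00184), Cav3 (0.20, 0.00977), Actn1 (0.20, 0.0288) and Ank3 (0.11, 0.0312) were higher. With the beta-actin ratio the averaged calls of F11r (0.0999), Actn1 (0.127) and Ank3 (0.164) ended. That of Cav3 held in every alternative (highest 0.033), but not without FVBN control array 8182 (0.0816). The other Cav3 probe set did not pass averaged (0.0738). Lower in the averaged difference were the endothelial cadherin gene Cdh5 (-0.20 ± 0.06, adjusted p = 0.0281), Cdh13, T-cadherin (-0.22 ± 0.06, adjusted p = 0.0288), and Cav1, the caveolin of endothelium and other cells (-0.21 ± 0.06, adjusted p = 0.0322). Each lost its call with the beta-actin ratio in the fit, where the differences were -0.16 for Cdh5 (adjusted p = 0.326), -0.19 for Cdh13 (0.302) and -0.25 for Cav1 (0.15), and with all probe sets (0.0764 for Cdh5, 0.0851 for Cdh13 and 0.0903 for Cav1). Cdh5 also lost it without FVBN control array 8182 (0.243), FVBN + Doxy array 8337 or 8340 or tTA + Doxy array 7488. Cav1 lost it without 8182 (0.366), 8337, 8340, 8341 or 7488, and Cdh13 without FVBN control array 8177 (0.353) or FVBN + Doxy array 8341 (0.0611).

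**Figure D4:**
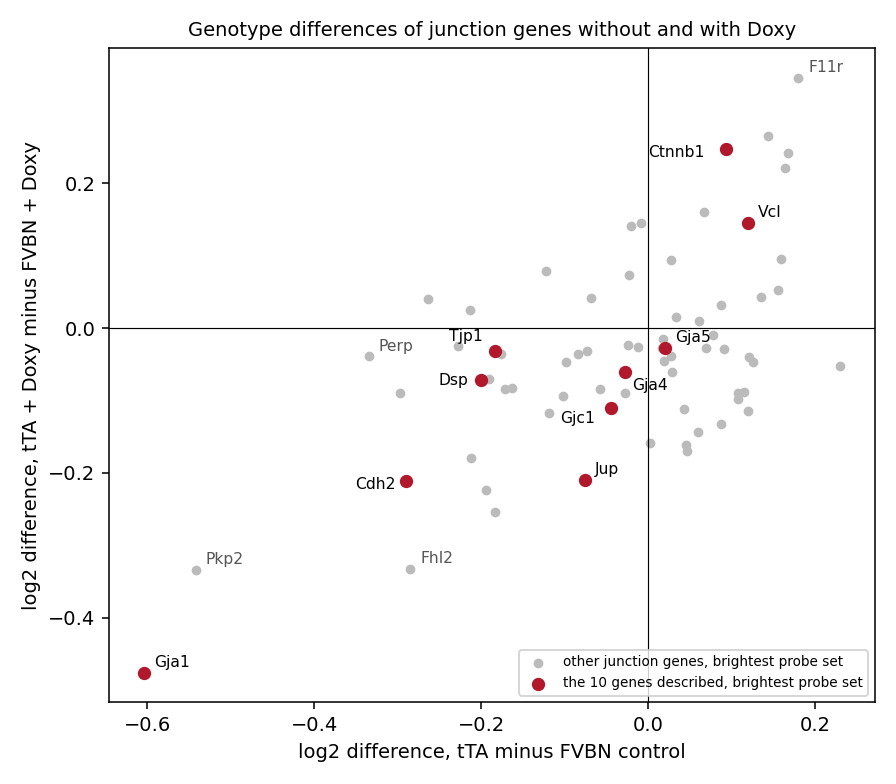
Log2 genotype difference without Doxy (x axis, tTA minus FVBN control) and with Doxy (y axis, tTA + Doxy minus FVBN + Doxy) for the 10 genes described (red) and 61 other junction genes (grey), each by its brightest probe set. Gja1 lies at -0.60 and -0.48 and Pkp2 at -0.54 and -0.33.

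Whole ventricle holds many cell types, and in such samples fewer cells of a type and less RNA per cell cannot be told apart. Levels of cell type markers beside these results were as follows. The summed intensity of 11 ventricular muscle markers of the 13 listed was 38430 to 44120 in tTA + Doxy, 36780 to 43390 in tTA, 38220 to 42270 in FVBN + Doxy and 40250 to 43780 in FVBN control, overlapping in all groups. Of them 2 fell (Ryr2 and Ckm) and 1 rose (Mybpc3) in the averaged difference, in which 4.27% of all tested probe sets were called lower and 4.75% higher, the shares to set beside each marker count here. For 13 endothelial markers the sums were 2445 to 2709 in tTA + Doxy, 2523 to 2739 in tTA, 2544 to 2892 in FVBN + Doxy and 2923 to 2991 in FVBN control, and 4 of 13 fell, among them Cdh5, which is on the junction list too. Smooth muscle and pericyte markers, 9 on the array, summed to 1027 to 1274 in tTA + Doxy, 1001 to 1183 in tTA, 1184 to 1352 in FVBN + Doxy and 1426 to 1507 in FVBN control, with 2 of 8 tested lower and 1 higher. Macrophage and blood markers, 6 on the array, summed to 2598 to 5524 in tTA + Doxy, 2737 to 4801 in tTA, 5169 to 5760 in FVBN + Doxy and 5226 to 5289 in FVBN control, with 2 of 5 tested lower. Most of that sum is the hemoglobin gene Hba-a1, at 2236 to 5341. The brightest macrophage marker, Lyz2, read 84.8 to 156.1, so the sum says little about macrophages. Fibroblast markers summed to 3670 to 3986 in tTA + Doxy, 3419 to 4870 in tTA, 3787 to 4184 in FVBN + Doxy and 4200 to 4206 in FVBN control, and 1 of 10 fell. Of 4 atrial, 2 conduction and 1 adipocyte markers tested none passed. No marker read 0 on any array. The part of these cells in the results was not tested.

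Within groups, several junction genes went up and down together from array to array. After the group means were removed, the brighter Gja1 probe set correlated over the 19 arrays with Cdh2 (Pearson r = 0.669), Vcl (0.633), Dsp (0.593) and Tjp1 (0.537), and less than 0.35 with Ctnnb1, Jup, Gja5, Gja4 and Gjc1. The points share the array, so its quality and its scaling act on both genes, and the values are a description. Of all tested probe sets 0.966% had a higher r with Gja1 than Cdh2 did, 1.57% higher than Vcl and 3.92% higher than Tjp1, and the median r was -0.03. Among tTA arrays, 7294, 7311 and 9322 were the highest 3 for Gja1 (1514, 1475 and 1347) and for Cdh2, as well as for Tjp1 (256.5, 257.2 and 241.3). Vcl and Dsp did not follow on 9322. Vcl read 421.7 there, below 434.3 on 7310, and Dsp 1360, below 1365 on 7292. On 7294, 7311 and 9322 the fibroblast marker sum was 4171, 4870 and 4578, against 3419 to 3926 on the other tTA arrays. The ventricular muscle marker sum was high on them too, at 43260, 43060 and 43360. On the other tTA arrays it ran from 36780 to 40770, apart from 43390 on 7292. The part of this in the results was not tested.

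**Figure D5:**
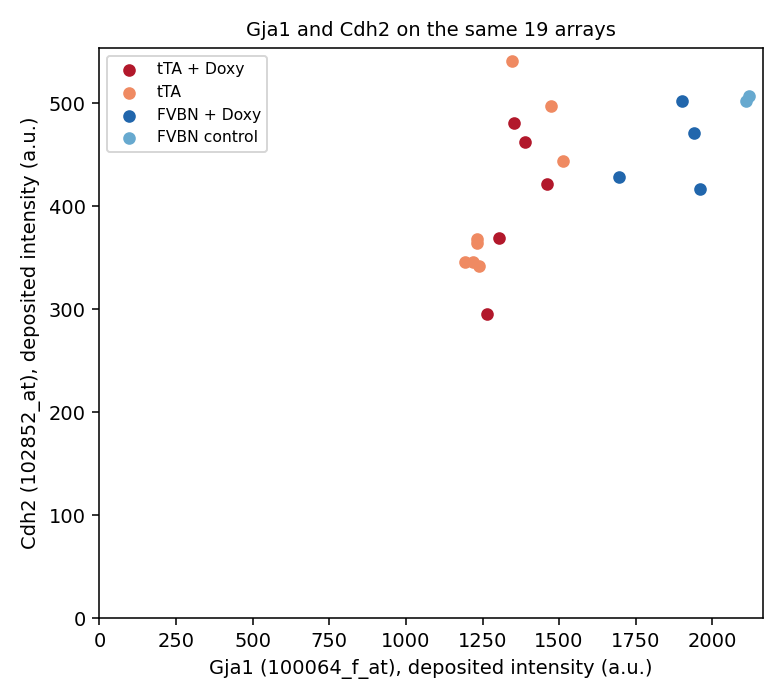
Deposited intensity (linear, arbitrary units) of Cdh2 against Gja1 on the 19 arrays, 1 point per array, coloured by group. Cdh2 of tTA arrays spans 341.5 to 541.1 and overlaps the wild-type arrays, while Gja1 separates the genotypes, with 1514 as the highest tTA value and 1697 as the lowest FVBN value.

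The transcripts most like Gja1 over the 19 arrays were Ivns1abp (Pearson r = 0.914), Ablim1 (0.908), Ryr2 (0.893), Pygb (0.883) and Gas1 (0.882), each lower in the averaged genotype difference, at -0.72 to -0.28 on the log2 scale. The genotype difference of Gja1 enters these values. With the group means removed the closest were Lrrc58 (0.857), Eif4a2 (0.832), Nrp1 (0.807), Gatad2a (0.8) and St13 (0.799). Of the other 9 genes described here none was among either 5.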

How the data were processed

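Ventricular RNA was measured on Affymetrix arrays, per the labels. The deposited values are linear intensities, 1 per probe set and array, and how the authors summarised and normalized them is not stated by any label or file header. Array medians were nearly equal as deposited. One array, titled for cardiac tTA expression with no number or treatment, was left out, and 19 were used. In R 4.3.3 with limma 3.58.1, intensities were quantile normalized, floored at the 10th percentile (14.36) and taken to log2. The 66 control probe sets were left out, and of the other 12422 the brightest 60% by mean were tested. Of those 12422, 10833 name 1 gene, 396 several and 1193 none, and 10817 matched RefSeq. A model of 4 group means was fitted with lmFit and eBayes (trend, robust), and p-values were adjusted by Benjamini-Hochberg within each comparison. Log2 differences of Gja1 minus each other probe set were fitted likewise, without trend. Precision rests on how many arrays each group has. The code was tested on simulated data.

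Every probe set of the 10 genes is accounted for. Other listed junction genes (other connexins and pannexins, other desmosome genes, other adherens genes, tight junction and scaffold genes, other disc genes, Wnt and catenin turnover genes) are named where called, up to 4 per list and comparison, and else counted. Members and lists were chosen with earlier results of these data known. The nearest genes by Pearson r were the first 5. Alternatives changed normalization, floor, filter, moderation, weights, arrays and the probe set of a gene, or added the beta-actin ratio. The second Gja1 probe set, fits without variance moderation and the alternatives for other junction genes were added after seeing the data.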

Additional observations from a re-analysis of the deposited data

Results flagged for a closer look

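Gjc1 read 56.16 in FVBN + Doxy array 8341, while the other 3 arrays of that group lay between 49.7 and 50.84, so that 1 array lay far from the others. Of 33 groups of 4 to 10 arrays examined for the tested probe sets this was the 1 set apart, and chance sets apart about 1 in 20 such groups.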

How the results depend on the processing

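None of the differences changed sign where it had passed. At the brighter Gja1 probe set all 3 genotype calls held in each alternative, with differences of -0.63 to -0.587 (tTA against FVBN control), -0.517 to -0.446 (tTA + Doxy against FVBN + Doxy) and -0.559 to -0.525 (averaged) when 1 array was left out, while the dimmer Gja1 probe set gave -0.79 (adjusted p = 0.057) and -0.581 (0.0667) in the first 2. Called probe sets of the 10 genes numbered 1 in tTA against FVBN control, against 3 with median scaling, 2 with no further normalization and 2 with no trend and no robust option. In tTA + Doxy against FVBN + Doxy there were 2, against 1 when every probe set was tested, 4 under array weights, 1 with the arrays compared alone and 1 with the beta-actin ratio, which also gave 1 of 2 averaged. Over all tested probe sets the beta-actin ratio gave 27 of 210 calls in tTA against FVBN control and 210 of 672 averaged, and with Doxy 439 calls became 284 when every probe set was tested and 696 under array weights. The cause was not tested. In FVBN + Doxy against FVBN control 3 passed, against 1 with all probe sets, 5 with the arrays compared alone and 8 without tTA arrays 9310 and 9322. In tTA + Doxy against tTA 5 passed, against 10 with median scaling, 11 with no further normalization, 2 when every probe set was tested, 11 under array weights and 3 without arrays 9310 and 9322. For the interaction 1 passed, against 6 with median scaling, 6 with no further normalization, 0 with all probe sets, 5 with the brightest 40% and 4 without those arrays. Leaving out 1 array moved the counts of the 10 genes between 1 and 2, 1 and 2, and 2 and 3 in the genotype comparisons, and 0 and 0 in the other 3, and the counts of all probe sets between 54 and 241, 240 and 493, 339 and 707, 1 and 7, 3 and 18, and 0 and 4. Without FVBN control array 8177 or 8182 the calls in all probe sets numbered 54 and 63 in tTA against FVBN control and 341 and 339 averaged, the remaining control being assumed to vary like the rest. With Doxy they numbered 240 to 272 without FVBN + Doxy array 8341 or 8337 or tTA + Doxy array 7485 or 7488. Of all calls in tTA against FVBN control 35.2% were higher, against 17.2% with median scaling and 25.0% with no further normalization. Gja1 differed from all 9 other genes without any 1 array; with the brightest 40% only 8 could be compared. The arrays compared alone were not fitted for the averaged difference and the interaction, which use all groups. No paired analysis was possible because the groups share no replicate numbers. Dim probe sets limit what can be said of Gja5, Gja4 and Gjc1 and of the untested probe sets.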

Other observations

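The array titled only for cardiac tTA expression, with no mouse number or treatment, entered no comparison. It read 1768 at the brighter Gja1 probe set and 86.34 at the dimmer one, 111.7 for Gja5, 97.87 for Gja4 and 52.71 for Gjc1. Cdh2 read 412.1, Ctnnb1 588.1, Jup 368.1 and Vcl 346.9. Dsp read 1385 and Tjp1 204.6.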
